A study of Mus musculus with 3 samples.

Results

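Olfactory receptor genes of the mouse were examined as a family with no established role in blood stem cells, to see how often and how strongly summits of the histone mark H3K9ac were listed at genes of that kind. The members were all protein-coding gene records on chromosomes 1 to 19 and X of the RefSeq table of GRCm38.p6, the assembly behind mm10, whose symbol starts with Olfr. They numbered 1110 of 21631 such records. H3K9ac, acetylation of histone H3 at lysine 9, is enriched at active promoters and enhancers, and it was profiled by CUT&Tag, a method in which an antibody guides a transposase that cuts and tags the DNA near the mark. The cells were haematopoietic stem cells (HSCs) sorted from the marrow of wild-type mice. The 3 libraries, 1 per group, were old HSC ABC, old HSC and young HSC. The labels do not explain ABC, and they do not say how many mice a library came from. Ages of 18 to 24 months for both old groups and 2 to 4 months for the young group follow from the extraction protocol and the first letter of each title.

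Each list gave summit positions with a score from the authors' peak calling, read here as a −log10 q-value within that list. The lists held 45386 (ABC-labelled), 108787 (old-labelled) and 33248 (young-labelled) summits, and their read depth was unknown. The peak names went against the labels: they read oHSC-H3K9ac-2 in the ABC-labelled list, oHSC-ABC-H3K9ac-1 in the old-labelled list and oHSC-H3K9ac-1 in the young-labelled list. Libraries are called by their label, and every difference below holds for the libraries as labelled. Each group is a single library, so nothing could be tested between groups and no p-value is given. Intervals on shares are exact 95% Clopper-Pearson intervals over genes or summits and cover counting error only. Of 12 HSC marker genes, 6 (ABC-labelled), 10 (old-labelled) and 8 (young-labelled) had a summit within 1 kb of a record end. The shares among all protein-coding genes were 44.1%, 57.6% and 42.4%. Mecom was not counted in any list, but its record held 10, 23 and 5 summits in the ABC-, old- and young-labelled lists. Those closest to either end of the Mecom record lay 1406, 1493 and 1481 bp away, beyond the 1 kb window. Of 7 granulocyte marker genes the counts were 4, 7 and 5 in the same order of lists, with scores of 23.2, 508 and 65.0 at S100a8. The counts were 0, 0 and 0 of 4 B cell markers, 3, 3 and 2 of 4 T and NK cell markers, 2, 2 and 1 of 4 erythroid markers, 1, 3 and 0 of 4 megakaryocyte markers, and 1, 2 and 0 of 4 stroma and endothelium markers. The part of other cells in the results below was not tested.

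Olfactory receptors are G protein-coupled receptors that bind odorants on the cilia of sensory neurons in the nose. Each such neuron expresses 1 receptor allele out of the whole family, and the remaining receptor genes lie in heterochromatin. Most members have a coding region in a single exon and sit in long clusters of related genes. Class I receptors, the type shared with fish, occupy a cluster on chromosome 7 beside the beta-globin genes, while class II receptors are spread over many chromosomes.

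The annotation limited what a window at a gene end could see. Records of members were short, with a median of 950 bp (842 to 71199 bp), against 18987 bp for the other protein-coding genes, and 946 members were shorter than 1500 bp. Of the 944 members with an entry in the RefSeq table of start sites, 686 (72.7%) began at an ATG. Such a record may start at the start codon and lack any upstream exon, which was not checked. Only 5.25% of 16330 other genes with an entry began at an ATG. The last 27 bases before the record and its first 3 bases, in capitals, are shown for 4 such members that had an end summit in 1 list (RefSeq, GRCm38.p6, all on the + strand; Olfr547 at chr7:102534722-102534751, Olfr9 at chr10:128989887-128989916, Olfr281 at chr15:98456285-98456314 and Olfr47 at chr6:43235583-43235612).
Olfr547: gtttgatattgacagggttttctgggtATG
Olfr9: tttttattcctagtctgctttggggaaATG
Olfr281: tttatcccaaggacgtgccatccacaaATG
Olfr47: gttttctgcatcctctttcatagtgaaATG

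Sequences before annotated starts were also unlike those of most genes. Over the 300 bases from 250 before to 50 after the start, members had a median GC content of 35.0% and a median of 1 CpG, against 57.3% and 14 CpG for the other genes. Only 2 of 944 members had 10 or more CpG, compared with 60.2% of the other genes. The 39 members that had both a start entry and an end summit in any list had a median GC content of 48.7%, against 35.0% for the 905 with none, and both sets had a median of 1 CpG. Of the motifs searched on both strands, TATAAA (the TATA box core) was present in 41.0% of members and in 13.4% of all protein-coding genes. TAATTA, a core bound by LIM homeodomain factors such as Lhx2, was present in 18.4% of members and 4.68% of all, and CCAAT in 40.6% and 39.3%. The remaining motif searched, the O/E (EBF) core, was rare, at 0.530% of members and 0.926% of all. CCAAT and TAATTA can share bases, and each was counted alone. TATAAA and TAATTA hold no G or C, and members' sequences were low in GC. The part of GC content in the motif shares was not tested. The 250 bases before the start are shown for 3 members whose record does not begin at an ATG (RefSeq, GRCm38.p6). Olfr1414 (chr1:92518516-92518765, − strand) had summits in 2 lists inside this stretch, and capitals mark the bases from one summit to the other. Olfr69 (chr7:103771595-103771844, − strand), a neighbour of the beta-globin genes, and Olfr16 (chr1:172956518-172956767, + strand) had no summit nearby in any list, and capitals in Olfr69 mark TATAAA on either strand. No bases are marked in Olfr16, although it also holds TATAAA on the opposite strand, printed as tttata. GC content over these bases was 59.2% for Olfr1414, 38.0% for Olfr69 and 40.4% for Olfr16.
Olfr1414: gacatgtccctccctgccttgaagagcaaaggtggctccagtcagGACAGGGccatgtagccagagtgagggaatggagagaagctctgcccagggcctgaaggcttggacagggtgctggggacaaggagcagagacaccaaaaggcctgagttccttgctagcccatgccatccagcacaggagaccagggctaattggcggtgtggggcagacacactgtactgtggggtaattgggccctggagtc
Olfr69: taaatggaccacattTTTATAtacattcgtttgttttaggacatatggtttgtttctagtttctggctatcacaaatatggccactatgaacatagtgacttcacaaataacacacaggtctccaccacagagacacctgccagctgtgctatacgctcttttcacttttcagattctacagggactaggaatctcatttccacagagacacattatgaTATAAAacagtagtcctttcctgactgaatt
Olfr16: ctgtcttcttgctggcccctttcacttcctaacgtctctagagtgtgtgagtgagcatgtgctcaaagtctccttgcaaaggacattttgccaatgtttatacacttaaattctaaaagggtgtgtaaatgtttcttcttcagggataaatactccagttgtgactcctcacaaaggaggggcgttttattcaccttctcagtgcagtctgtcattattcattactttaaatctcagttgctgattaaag

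Nearly all members were free of listed summits. A summit within 1 kb of either record end (an end summit) was present at 13 members in the ABC-labelled list (1.17%, interval 0.625 to 1.99), at 42 in the old-labelled list (3.78%, 2.74 to 5.08) and at 9 in the young-labelled list (0.811%, 0.371 to 1.53). Over all protein-coding genes the shares were 44.1%, 57.6% and 42.4% in that order of lists. In the other 20521 genes they were 46.4%, 60.5% and 44.7%, which is 39.6, 16 and 55.1 times the share in members. A summit inside the record was listed at 11, 36 and 6 members in the ABC-, old- and young-labelled lists, against a background of 57.9%, 69.8% and 53.8% of all protein-coding genes. Records of members are much shorter than those of other genes, and the part of length in the end or inside shares was not tested. Members with an end summit in the ABC-, old- and young-labelled lists had median records of 3470, 979.5 and 2781 bp. The median was 948 bp for members with an end summit in no list. No end summit in any list was found at 1062 members (95.7%), against 36.3% of the other genes. End summits in all 3 lists were found at 3 members (0.270%), against 38.7% of the other genes.

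Shares were also compared within classes of start sequence. Among genes with 1 to 4 CpG around the start, end summits were listed at 1.18%, 4.03% and 0.504% of 595 members in the ABC-, old- and young-labelled lists, and at 18.3%, 31.5% and 15.4% of 3544 other genes. Among genes with no CpG, the shares were 1.27%, 2.22% and 0.316% of 316 members and 9.89%, 17.1% and 8.45% of 556 other genes. Among genes whose record starts at an ATG, they were 0.875%, 3.06% and 0.437% of 686 members and 14.8%, 20.7% and 13.1% of 857 other genes. The part of CpG content or of the annotated start in the members' low share was not tested.

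The end summits of members scored low beside those of other genes. Their scores ran from 1.62 to 8.41 with a median of 3.77 in the ABC-labelled list, from 1.43 to 23.3 with a median of 3.39 in the old-labelled list and from 1.63 to 7.79 with a median of 2.74 in the young-labelled list. The highest end summits of the other genes had medians of 8.48, 19 and 9.88 in the same lists. Many of the members' scores were values that recur in a list: 4 of 13, 17 of 42 and 5 of 9 in the ABC-, old- and young-labelled lists were shared by 100 or more summits of that list. The score does not rank such summits apart. Among all summits of a list, wherever they lie, the members' scores had a median percentile of 46.2 (ABC-labelled), 37.6 (old-labelled) and 21.4 (young-labelled).

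Raising the lowest score kept removed members faster than other genes. At a score of at least 3, end summits were left at 9, 25 and 4 members in the ABC-, old- and young-labelled lists (backgrounds 40.5%, 54.1% and 39.7%). At 5 or more they were left at 4, 9 and 2 members (32.9%, 48.3% and 34.4%). At 10 or more the numbers were 0, 2 and 0 of 1110 (18.2%, 39.8% and 20.9%), while 19.2%, 42.0% and 22.0% of the other genes still had one. The ratio of the share in other genes to the share in members thus stood at 96.2, 62.7 and 201 at a score of 5, against 39.6, 16 and 55.1 for the lists as deposited. The old-labelled list, which had the largest share of members with a summit as deposited, still had 2 at a score of 20 and the others 0, where 4.41%, 27.7% and 6.06% of all protein-coding genes had one in the ABC-, old- and young-labelled lists.

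**Figure D1:**
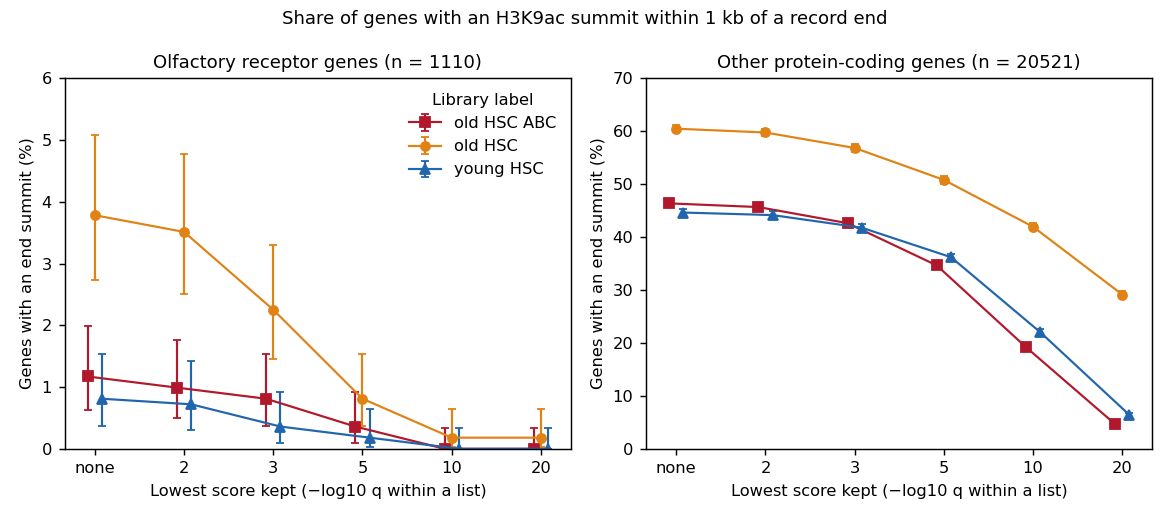
Share of olfactory receptor genes (left) and of other protein-coding genes (right) with an end summit, in percent, against the lowest score kept in each list; points are the 3 libraries, bars are exact 95% intervals, and the y scales differ. The share of members fell from 3.78% or less to 0.180% or less at a score of 10, where 19.2% to 42.0% of other genes kept an end summit.

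Per length of sequence the difference had the same direction. Windows of 1 kb around members' ends covered 3.45 Mb in all and held 14, 51 and 9 summits in the ABC-, old- and young-labelled lists, or 4.05, 14.8 and 2.61 per Mb. The same windows around other genes held 135, 189 and 126 per Mb. Whole chromosomes held 17.2, 41.3 and 12.6 per Mb, so the members' ends stood at 0.235, 0.357 and 0.207 of the chromosome average. Sequence inside receptor clusters but away from every protein-coding record by more than 1 kb had 3.02, 6.73 and 2.10 summits per Mb, against 7.47, 21.3 and 4.96 per Mb in the remaining sequence outside genes. In the old-labelled list as deposited, members' ends were denser than the cluster sequence between the genes, at 14.8 against 6.73 per Mb. In the ABC- and young-labelled lists those figures were 4.05 against 3.02 and 2.61 against 2.10, on 14 and 9 summits. The old-labelled difference depended on the scores kept. The figures there were 7.82 against 4.72 at a score of at least 3, 2.61 against 2.66 at 5 and 0.579 against 0.807 at 10. At 20 they were 0.579 against 0.121, on 2 and 3 summits. With the old-labelled list cut to the length of the shortest list, they were 1.74 against 2.02.

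Around the annotated starts of members a small rise was seen in the old-labelled list. The first kb downstream of 948 annotated starts held 21 summits and the kb upstream held 15, or 22.2 and 15.8 per 1000 starts, and the next kb on either side held 5.27 (downstream) and 11.6 (upstream). Farther out, to 10 kb, single bins reached 13.7 per 1000 starts. In the ABC-labelled list the first kb on each side held 5 summits, and in the young-labelled list 1. For other genes the first kb downstream held 365, 438 and 363 summits per 1000 starts in the ABC-, old- and young-labelled lists.

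**Figure D2:**
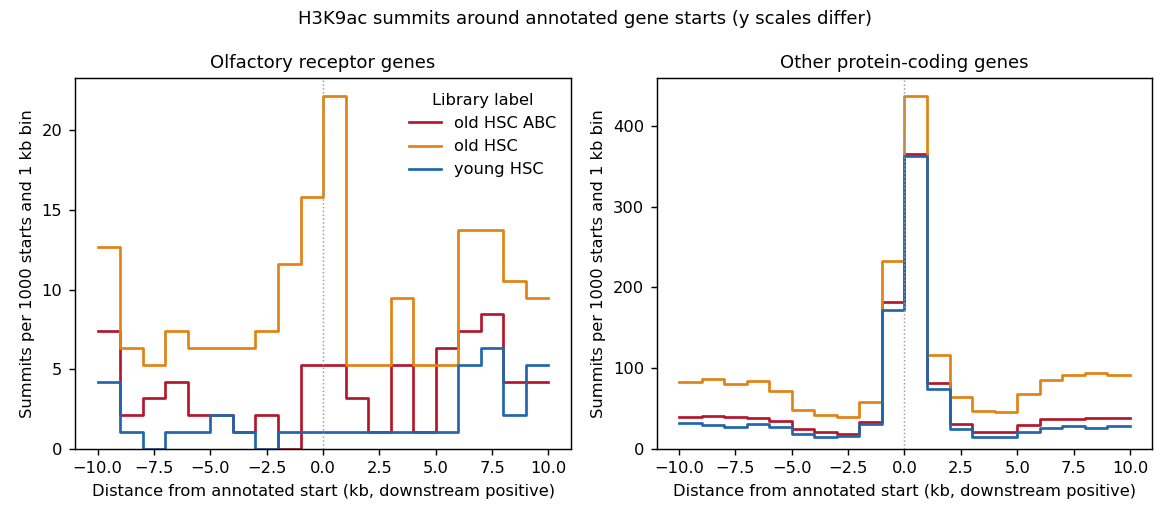
H3K9ac summits per 1000 annotated starts in bins of 1 kb, against distance from the start in kb (downstream positive), for olfactory receptor genes (left) and other protein-coding genes (right); lines are the 3 libraries and the y scales differ. At members the old-labelled line peaked at 22.2 in the first kb downstream, against 438 for other genes.

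Among members, Olfr1033 had the highest end summit in the ABC- and young-labelled lists, and Olfr658 the highest in the old-labelled list. Each was second to the other, save that Olfr12 (6.51) stood above Olfr658 in the ABC-labelled list. Olfr1033 (chromosome 2, 86020640 to 86044808) had end summits with scores of 8.41, 21.0 and 7.79 in the ABC-, old- and young-labelled lists. The first pair lay at the same base, 86020540, and the young-labelled summit at 86020716. Apart from members, the nearest annotated record to them was the receptor pseudogene Olfr1035-ps1, 35459 bp or 35283 bp away, and the nearest protein-coding gene of another family, Fads2b, lay 501705 bp from the record. Olfr658 (chromosome 7, 104642880 to 104647305) had scores of 6.04, 23.3 and 5.46, at positions 104647270, 104647229 and 104647231, all inside the record near its end. The record of the pseudogene Usp17le-ps held the first of these positions and began 20 and 18 bp from the others, so they cannot be assigned to Olfr658 alone. The Olfr1033 summits ranked 7285 of 45386, 7424 of 108787 and 8406 of 33248 within their lists, and the Olfr658 summits ranked 12110, 6547 and 12868.

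Olfr1373 (chromosome 11, 52144593 to 52149130) was the remaining member with an end summit in all 3 lists. Its scores were 3.77, 3.39 and 4.03 in the ABC-, old- and young-labelled lists. The old- and young-labelled summits lay 2 bp apart, at 52143901 and 52143903, and the ABC-labelled one was inside the record at 52145312. None of the 3 was within 500 bp of a record end. Across the 13 members with end summits in 2 or 3 lists, the best summits of the different lists lay within 500 bp of each other at 8, and farther apart at 5.

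Among clusters of 8 or more members, one on chromosome 1 had the largest share of members with end summits in the ABC- and old-labelled lists. Its 8 members span 92479681 to 92621001, and 4 of them had end summits in the ABC-labelled list, 6 in the old-labelled list and 0 in the young-labelled list. Olfr12 (92619881 to 92621001) scored 6.51 in the ABC-labelled and 9.81 in the old-labelled list, at summits 2 bp apart, and its nearest young-labelled summit was 20589 bp away. Olfr1414 (92511048 to 92518515) scored 5.21 in the ABC-labelled and 8.25 in the old-labelled list. Those summits lay 205 and 199 bp before the annotated start, at the bases printed in capitals above, and the nearest young-labelled summit was 2464 bp from an end. Over the whole span the lists held 7, 16 and 3 summits, or 49.5, 113 and 21.2 per Mb, each above the chromosome average of its list. Smaller clusters could be denser: 3 members on chromosome 8, Olfr374 among them, lay in a span with 56.8, 114 and 56.8 summits per Mb, and the 2 members of the Olfr1373 cluster on chromosome 11 in one with 72.1, 72.1 and 43.2. The 8 genes lie between Ndufa10, which encodes a subunit of respiratory complex I, and Cops9, a subunit of the COP9 signalosome, and Olfr1416 was 5856 bp from the Ndufa10 record. This group was picked out after its values were seen.

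Other members among the 6 highest-scoring of a list were seen in fewer libraries. Olfr554, in the class I region of chromosome 7 (102640248 to 102641201), had an old-labelled end summit of 7.57 and a young-labelled one of 2.46, 173 bp apart, and no ABC-labelled summit closer than 38710 bp. Olfr9 (chromosome 10, 128989914 to 128990852) was listed in the old-labelled library alone, at 6.70. Olfr374 (chromosome 8, 72107040 to 72110509) scored 4.54 in the ABC-labelled and 2.67 in the old-labelled list, but the summits lay 2236 bp apart, and its record held 1 and 3 summits. Olfr47 (chromosome 6, 43235610 to 43236575) was listed in the ABC-labelled library alone, at 3.92. Olfr523 (chromosome 7, 140176104 to 140177057) had scores of 3.78 (old-labelled) and 4.59 (young-labelled) at positions 1800 bp apart. In the young-labelled list Olfr318 (2.74) and Olfr157 (2.61) followed. Olfr687, whose record spans 105227717 to 105276461 on chromosome 7, had 4 old-labelled summits in the record or within 1 kb of it and none in the other lists. Olfr374 also had 4 old-labelled summits on that count, in a record of 3470 bp against 48745 bp for Olfr687.

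**Figure D3:**
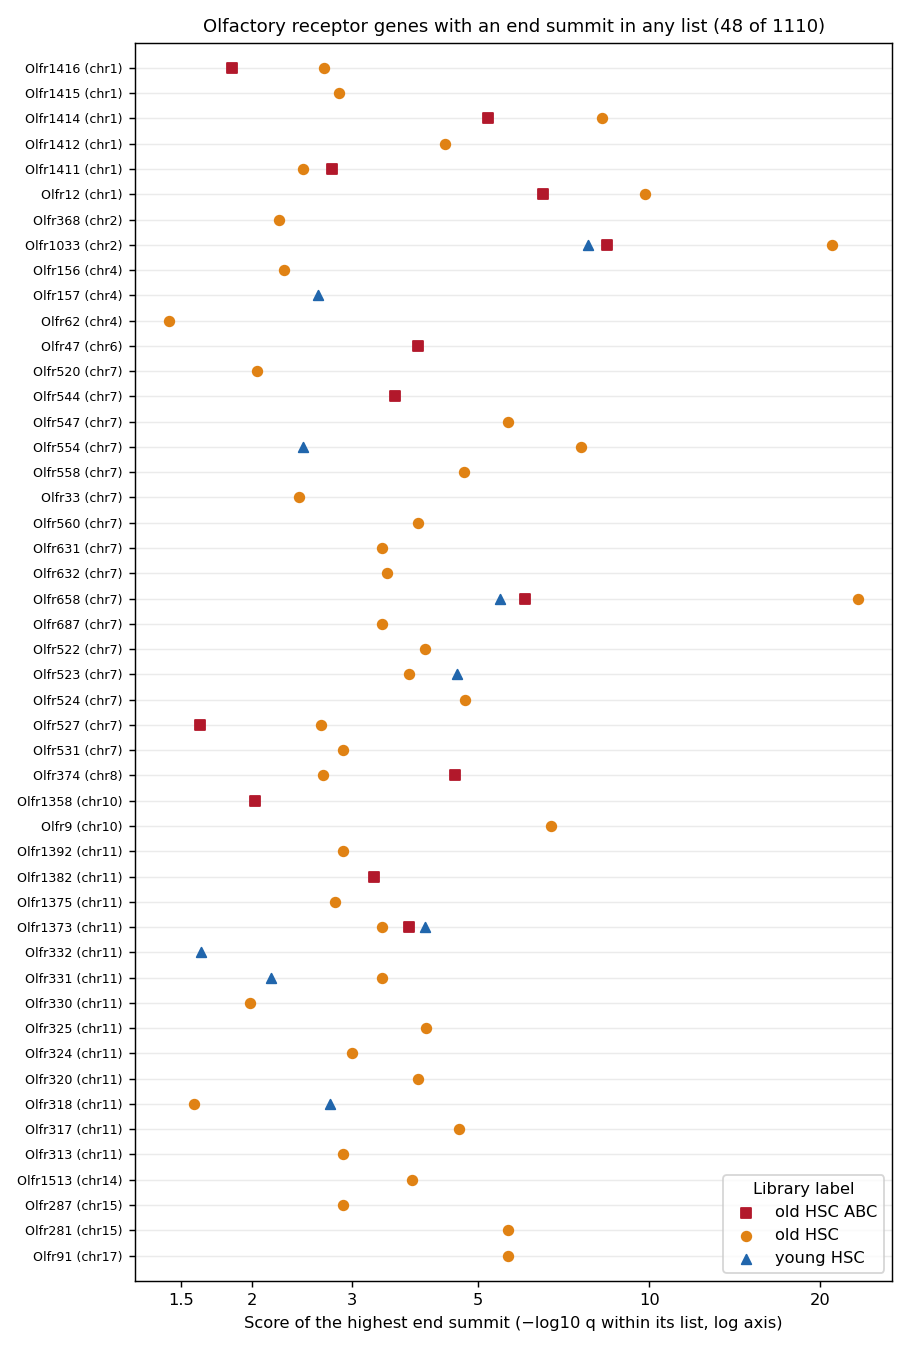
Score of the highest end summit (−log10 q within its list, log axis) of the 48 members with an end summit in any list, 1 row per gene with its chromosome; symbols are the 3 libraries. Scores above 20 are seen at Olfr1033 and Olfr658 in the old-labelled list, and most rows hold a single symbol, with 35 members listed in 1 library.

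Of 10 members known to be expressed outside the nose, 6 had no summit in the record or within 1 kb of it in any list, against 1054 of all 1110 members. The 6 include Olfr2, known from macrophages, Olfr16, known from sperm, and Olfr920 and Olfr1019. Olfr544 had an end summit in the ABC-labelled list alone (3.57, at 102487731), and Olfr558 only an old-labelled one (4.73, at 102703019). Olfr78, expressed in the carotid body, had no end summit in any list but 2 old-labelled summits in its record. One of these fell in the record of Olfr560, which lies within that of Olfr78. Olfr1393 likewise held 1 ABC-labelled, 3 old-labelled and 0 young-labelled summits in its record, which lies 846 bp from Mgat1, and none within 1 kb of an end. The records of Olfr544, Olfr558, Olfr78 and Olfr1393 were 4194, 9732, 18751 and 28487 bp long, against a median of 950 bp for members. The part of record length in these whole-record counts was not tested.

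Of 13 members within 100 kb of the beta-globin genes on chromosome 7, 0 had an end summit in the ABC-labelled list, 2 in the old-labelled list and 0 in the young-labelled list. These were Olfr631 (3.39) and Olfr632 (3.45), 61.9 and 84.2 kb from the globin genes. The stretch from the first to the last beta-globin gene record (103812524 to 103853207) held 0 summits in each list.

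The ABC-labelled library had 29 fewer members with an end summit than the old-labelled library, 13 against 42. An end summit in the ABC-labelled list alone was found at 4 members (0.360%) and in the old-labelled list alone at 33 (2.97%), against 2.25% and 15.8% of all protein-coding genes. The old-labelled library had 33 more such members than the young-labelled one, with 35 members in the old-labelled list alone (3.15%) and 2 in the young-labelled list alone (0.180%), against 16.8% and 1.6% of all protein-coding genes. The ABC-labelled library had 4 more than the young-labelled one, with 10 members (0.901%) and 6 (0.541%) on either side, against 6.5% and 4.84%. The pairs share libraries, so the 3 comparisons do not stand apart from each other. Each direction among members was also the direction among all genes.

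The order of the lists turned with the length of the list. When each was limited to its 33248 highest-scoring summits, the length of the shortest, end summits were found at 9 members in the ABC-labelled list (0.811%, interval 0.371 to 1.53), at 6 in the old-labelled list (0.541%, 0.199 to 1.17) and at 9 in the young-labelled list (0.811%, 0.371 to 1.53). The backgrounds were 41%, 46.1% and 42.4% of all protein-coding genes. The old-labelled list thus held the most members as deposited and the fewest at equal length, where it kept the largest share of all genes. Its lowest score at that length was 5.86, against 2.84 in the ABC-labelled and 1.30 in the young-labelled list. The intervals at equal length overlapped. Members in the ABC-labelled list alone numbered 5, against 2 in the old-labelled list alone (backgrounds 3.24% and 8.32%), and those in the old-labelled list alone 3, against 6 in the young-labelled list alone (6.99% and 3.32%). Between the ABC- and young-labelled lists there were 6 on either side (4.75% and 6.17%). The ratio of other genes to members then stood at 53.2, 89.8 and 55.1 in the ABC-, old- and young-labelled lists.

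Summits at members were shared between lists less often than summits in general in most pairings, on few summits. Of the 19 ABC-labelled summits in member records widened by 1 kb, 8 had an old-labelled summit no more than 500 bp away (42.1%, interval 20.3 to 66.5), against 72.3% of all ABC-labelled summits. Of 67 old-labelled summits there, 8 had an ABC-labelled neighbour (11.9%, 5.30 to 22.2), against 30.3% of all, and 6 a young-labelled one (8.96%, 3.36 to 18.5), against 23.8%. Of 19 ABC-labelled summits 2 had a young-labelled neighbour (10.5%, against 43.5%). Of the 9 young-labelled summits, 2 had an ABC-labelled neighbour (22.2%, against 59.0%) and 7 an old-labelled one (77.8%, 40.0 to 97.2), close to the 77.4% of all young-labelled summits. Differences of sharing were not tested.

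Members with end summits were spread unevenly over the genome. Members were joined into 55 clusters wherever they were 500 kb or less apart. The largest, 222 members over 5.07 Mb of chromosome 2 (85330967 to 90401674), held 2, 7 and 1 summits in the ABC-, old- and young-labelled lists, and Olfr1033 was its single member with an end summit in each list. The class I region of chromosome 7 (102476773 to 105369317) held 126 members and 27 other protein-coding genes, with end summits at 2, 9 and 2 members. A cluster of 21 members on chromosome 11 (58454915 to 58842042), with 3 other protein-coding genes, had end summits at 0, 8 and 3. Of the 23 clusters with 10 or more members, which hold 1002 of the 1110, 12 had no end summit at any member in any list. The 250 members on chromosomes 3, 9, 13, 16, 19 and X, 130 of them on chromosome 9, had none either.

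The members with end summits were nearer to genes of other families. Their median distance to the nearest protein-coding record of another family was 33.2 kb for those in the ABC-labelled list, 29.6 kb in the old-labelled list and 37.9 kb in the young-labelled list, against 140 kb for all members. Among 42 members up to 10 kb from such a gene, end summits were listed at 2.38%, 9.52% and 0% in the ABC-, old- and young-labelled lists. Among 216 members 10 to 50 kb away the shares were higher, at 4.17%, 12.5% and 2.78%, and among 412 members 50 to 200 kb away they were 0.485%, 2.43% and 0.485%. Among 440 members more than 200 kb away the share was 0.227% in each list, which was Olfr1033 every time. Clusters of 2 to 19 members had end summits at 4.55%, 10.6% and 1.52% of 198 members, against 0.181%, 1.99% and 0.542% of 553 members in clusters of 20 to 99. The share did not follow cluster size throughout, with 0.862%, 2.87% and 0.862% of 348 members in clusters of 100 or more, and 0, 0 and 0 of 11 single members. Of the 4 members that overlapped a protein-coding record of another family, Olfr524, which overlaps Cd163l1, was marked in the old-labelled library, and the other 3 in none.

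**Figure D4:**
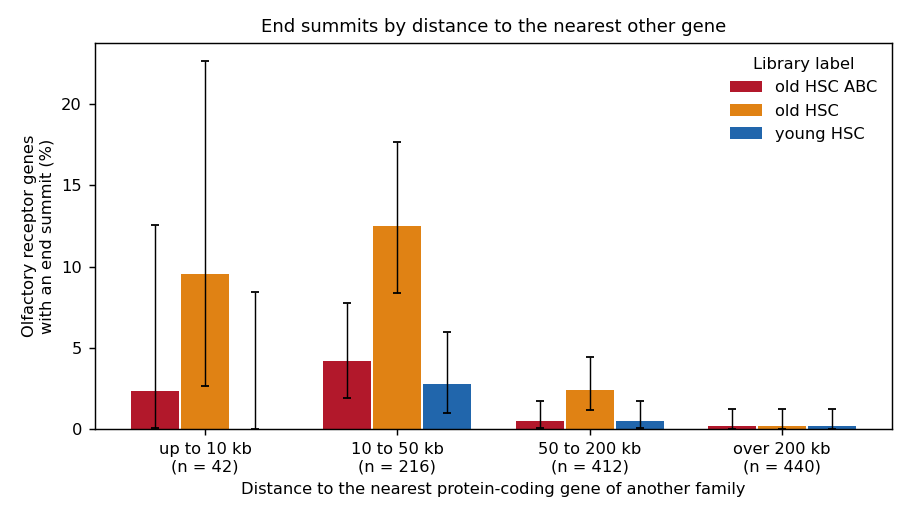
Share of olfactory receptor genes with an end summit, in percent, by distance to the nearest protein-coding gene of another family; bars are the 3 libraries with exact 95% intervals, and n is the number of members. The old-labelled bars stood at 12.5% for 10 to 50 kb and at 0.227% for over 200 kb.

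Other families used mainly outside blood were counted in the same way, and their shares varied. End summits were listed at 1, 1 and 1 of 231 vomeronasal type 1 receptor genes in the ABC-, old- and young-labelled lists (0.433% in each), and at 0, 2 and 0 of 124 vomeronasal type 2 receptor genes; both families encode pheromone receptors. None of 35 bitter taste receptor genes had one in any list. Keratin-associated protein genes, expressed in hair, had 3, 5 and 1 of 56 (5.36%, 8.93% and 1.79%), and beta-defensin genes, which encode epithelial antimicrobial peptides, 1, 3 and 3 of 42 (2.38%, 7.14% and 7.14%). These shares are above those of members in each list, though all 6 intervals overlapped those of members. The interval for members in the old-labelled list (2.74 to 5.08%) lay above the interval for vomeronasal type 1 receptors there (0.0110 to 2.39%), and in the other lists the intervals overlapped. These intervals count the genes of a cluster as separate, and no difference between families was tested. With the old-labelled list cut to the length of the shortest list, the shares were 0.541% of members and 0.433% of vomeronasal type 1 receptor genes. By contrast, end summits were listed at 67, 67 and 62 of 79 cytosolic ribosomal protein genes and at 68, 73 and 71 of 78 mitochondrial ribosomal protein genes.

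Genes that work with the receptors in olfactory neurons were also counted by end summits. Of 22 such genes, 6, 10 and 7 had an end summit in the ABC-, old- and young-labelled lists, and 12 had none in any. Over all protein-coding genes the shares were 44.1%, 57.6% and 42.4%, and the members of the list were not tested against them. Some of the 12 held summits inside the record, such as Slc24a4 (6, 21 and 2) and Gnal (4, 10 and 3). Cnga2, Emx2, Gng13 and Lhx2 held 0 there in each list. Gnb1, a G protein beta subunit, had scores of 8.84, 26.8 and 6.69, Kdm1a, a histone demethylase needed for receptor choice, had 11.2, 31.0 and 12.6, and Ric8b, a chaperone of the olfactory G protein, had 4.74, 23.1 and 9.05. Cnga2, a subunit of the olfactory cyclic nucleotide-gated channel, had its nearest summits 45373 bp or more away, and Lhx2 and Emx2, transcription factors of these neurons, had none within 13638 bp. Omp, olfactory marker protein, had scores of 4.52, 3.59 and 2.69, but its record lies within that of Capn5. Cnga4 and Atf5 also had end summits in all 3 lists, and these lay within 1 kb of Fam160a2 and of Nup62 and Il4i1b. Ebf1 (8.25), Adcy3 (5.88) and Stoml3 (5.47) were marked at an end in the old-labelled library alone, but the Adcy3 record held 3, 11 and 3 summits and the Stoml3 record 1, 1 and 0 in the ABC-, old- and young-labelled lists.

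A list of summits can miss a gene because its reads cannot be placed, and receptor genes resemble each other. The sources used here do not say how reads with several possible positions were treated. Of the 944 members with a start entry, 4 had a 300-base start sequence identical to that of another gene, against 259 of 16330 other genes. Similarity short of identity was not tested.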

How the data were processed

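The authors deposited 1 list of summits per library, each summit a 1 bp position with a score; MACS2, BWA, edgeR and Picard on mm10 are named per the submitters' processing notes, with roles, versions and settings not given in the sources used here. The deposited score is read as a −log10 q-value, since each list starts at 1.30, the −log10 of 0.05. Lists were taken as called per library.

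Gene records, start sites and sequences came from RefSeq tables of GRCm38.p6. Summits within 1 kb of a record end, inside records and within 500 bp of another list's summits were counted with Python 3.11.15, numpy 2.4.6 and pandas 2.3.3; intervals came from scipy 1.17.1. Chromosome lengths were taken to the last gene record. The counting was tested on simulated data. No test between groups was run, because each group had 1 library. Alternatives were equal-length lists, scores kept from 3, 5 or 10 upwards, windows of 500 bp and 2 kb, members with no other protein-coding record within 10 kb, and whole records; windows of 10 kb and annotated starts alone were added after seeing the data.

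The members, gene lists and comparison families were chosen with earlier results of these data known. Members were named by rule (end summits in all 3 lists, the highest scores per list, the most summits per record, the neighbours of beta-globin, and 10 receptors with reported expression elsewhere); others named were chosen after their values were seen.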

Additional observations from a re-analysis of the deposited data

How the results depend on the processing

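No paired analysis was possible because each group had 1 library. The share of members with an end summit (1.17% ABC-labelled, 3.78% old-labelled and 0.811% young-labelled as deposited) moved beyond its interval in the following cases. At a score of at least 3 it was 2.25% (old-labelled) and 0.360% (young-labelled). At 5 or more it was 0.360%, 0.811% and 0.180%, and at 10 or more 0%, 0.180% and 0%, in the ABC-, old- and young-labelled lists. In equal-length lists the old-labelled share was 0.541%. Windows of 10 kb gave 6.31%, 12% and 3.96%, where other genes had 72.4%, 82.8% and 67.4%. Annotated starts alone gave 0.212% in the young-labelled list.

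The difference in members between the ABC-labelled and old-labelled libraries, -29 as deposited, was -16, -5 and -2 at scores of at least 3, 5 and 10, and it reversed to 3 in equal-length lists. Between the old-labelled and young-labelled libraries, 33 became 21, 7 and 2, and reversed to -3. The ABC-labelled minus young-labelled difference of 4 became 2 at a score of 5, 0 at 10, 0 in equal-length lists, 2 with windows of 500 bp and 8 with whole records. The lists differ in length and in the score that their ranks reach; the cause was not tested. Unknown read depth limits every difference between libraries.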

Other observations

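Pseudogene records of the family on the same chromosomes, 317 in all, were not among the members. End summits were listed at 3 of them in the ABC-labelled list (0.946%, exact 95% interval 0.196 to 2.74), at 4 in the old-labelled list (1.26%, 0.345 to 3.20) and at 0 in the young-labelled list. Olfr754-ps1 (chromosome 17, 37250097 to 37250888), 19346 bp from the MHC class I gene H2-M3, had end summits of 8.41 and 8.25 in the ABC- and old-labelled lists. The next highest were Olfr542-ps1 (5.05) and Olfr29-ps1 (4.95), each in the old-labelled list alone.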
